A study of Mus musculus with 6 samples.

Results

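The 135 genes described here encode enzymes of drug and xenobiotic metabolism. They were picked by name from a mouse expression array as the cytochrome P450, flavin monooxygenase, carboxylesterase, aldehyde dehydrogenase, aldo-keto reductase, UGT1 and UGT2 glucuronosyltransferase and sulfotransferase families, together with Por. Left out were Cyp51, which makes cholesterol, Cyp2f2 and Cyp4b1, and the retinal dehydrogenases Aldh1a1, Aldh1a2, Aldh1a3 and Aldh1a7. The array carries 182 probes for the 135 genes, among 25697 probes for 18138 gene symbols. The naming rule itself used no measured value, but the members were chosen with earlier results of these data known. The RNA was total lung RNA of FVB males at postnatal day 6, 3 of them hSRY-OFF and 3 hSRY-ON, with 1 array per mouse. Per the study's methods, all hSRY-ON mice carried 1 copy of Signalox-hSRY at the H11 locus. Once Cre has acted, this transgene expresses FLAG-tagged human SRY and EGFP from the broadly active CAG promoter. The Cre protein came from the egg of a Ddx4-Cre mother and acted in the fertilised egg, and the hSRY-ON mice chosen for the arrays lacked Ddx4-Cre itself. The name hSRY-OFF stands for a transgene that has not been recombined, while the study also calls littermates without it controls, so what the hSRY-OFF mice carried rests on their label. The transgene is 1 insertion in 1 line, and no array value was used here to check its activity. Unrecombined, the transgene expresses DsRed2, a red fluorescent protein. Per the study, hSRY-ON pups grew more slowly than littermates, with growth retardation visible at postnatal day 6. It also describes a lack of milk in their stomachs and limited alveologenesis in their lungs. The comparison asks how the RNA of these enzymes differed between lungs with and without active human SRY. Active SRY and these other differences between the pups cannot be told apart in it.

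Foreign compounds are cleared in steps. Cytochrome P450s of the endoplasmic reticulum, fed with electrons by the reductase Por, and the flavin monooxygenases add oxygen to a compound, while aldehyde dehydrogenases and aldo-keto reductases act on the carbonyl groups that result. Glucuronosyltransferases and sulfotransferases then attach a soluble group, and transporters export the product. In the lung much of this activity is known from the club and ciliated cells of the airways and from alveolar type II cells and macrophages.

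Most of these genes gave no signal in the lung at this age. A probe counted as detected on an array when its detection p, the share of negative control probes that were brighter, was under 0.05. By this measure 103 of the 182 probes were detected on none of the 6 arrays and 13 on 1 or 2. Among the 76 genes with no detected probe were Cyp1a1 and Cyp1a2, which oxidise aromatic compounds, and Cyp3a11, a liver drug oxidase. So were all 11 Cyp2c genes of the array, Cyp7a1, the rate-limiting enzyme of bile acid synthesis, and Cyp19a1, which makes oestrogen. The remaining 66 probes, for 49 genes, were detected on at least 3 arrays and were tested with limma across the whole array.

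Of the 66 tested probes 31 were higher in hSRY-ON lungs (47%, 22 genes), 1 was lower (1.52%) and 34 were not called, at an adjusted p under 0.05. Over the whole array 26.9% of the 13841 tested probes were called, 13.6% higher and 13.3% lower. That share rests on the arrays used, since it was between 12.1% and 17.8% without hSRY-OFF 1, 2 or 3 or hSRY-ON 2, while 22 to 26 member probes were called higher in the same 4 fits. The fitted change (log2, hSRY-ON minus hSRY-OFF) was above 0 for 60 of the 66 and below 0 for 6, with a median of 0.60 beside -0.03 for all tested probes. A probe with signal in hSRY-ON lungs alone enters the test only because it differs, and 6 member probes were of that kind. The count over the 49 member probes detected on all 6 arrays was 21 higher, 1 lower and 27 not called, with a median of 0.37 beside -0.03 for all such probes of the array, of which 13.9% were higher and 12.9% lower. Every hSRY-ON value lay above every hSRY-OFF value for 35 tested member probes and below for 3, against 22.4% and 24.1% of all tested probes. The fitted rise was at least 2-fold for 22 called probes of 17 genes, a size that 5.51% of all tested probes reached, and 14 of the 22 were detected on all 6 arrays. A fall of that size was found for 1 member probe and 4.19% of all tested probes. With 3 mice against 3 an exact two-sided permutation test cannot go below p = 0.1, so single genes rest on the limma fit. Its p-values measure the spread between the 6 mice. In whole lung, a change in the number of cells of a type and a change in RNA per cell cannot be told apart.

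**Figure D1:**
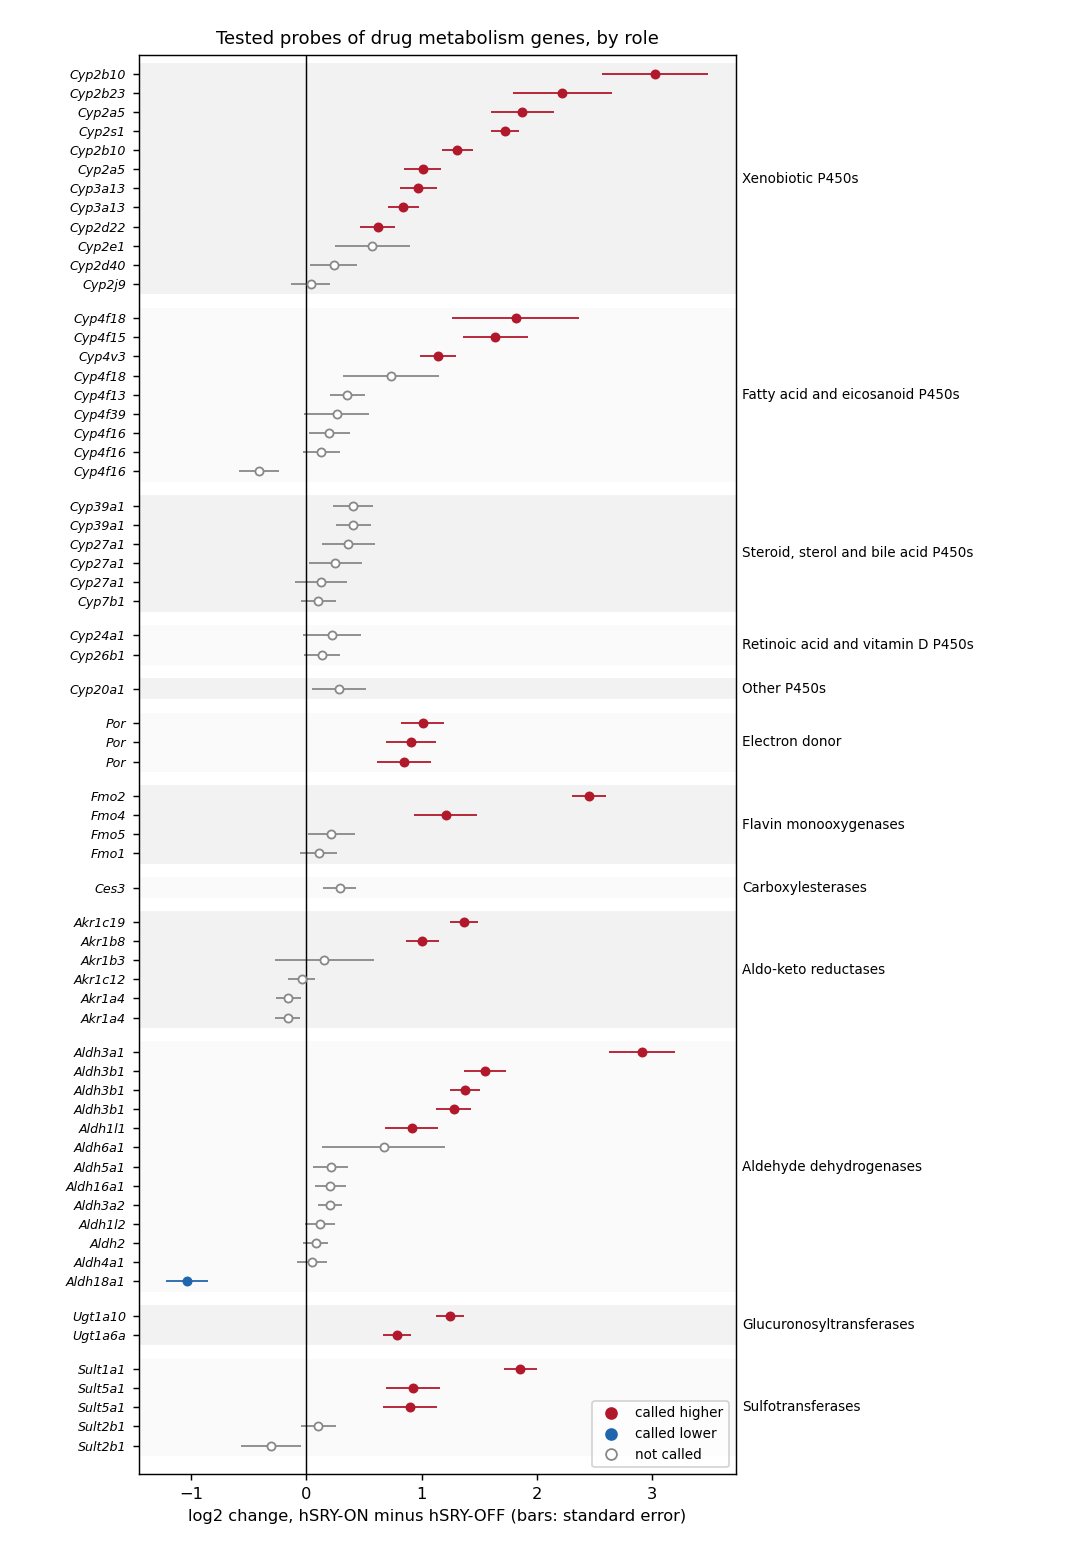
Fitted log2 change (hSRY-ON minus hSRY-OFF, 3 arrays each) of 64 tested probes, 1 point per probe with its standard error, grouped by enzyme role. Filled points passed an adjusted p under 0.05, of which 29 lie right of 0 and Aldh18a1 left of it; the steroid, sterol and bile acid P450s hold no filled point.

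Among the P450s of families 1 to 3, the main oxidases of foreign compounds, 9 of 12 tested probes were higher in hSRY-ON lungs and none lower, for 6 of 9 genes, with a median change of 0.99. The 9 include Cyp2b10 ILMN_1215955, Cyp2a5 ILMN_2734598 and the tested Cyp3a13 probes, all detected in no hSRY-OFF lung. These entered the test only because they differ, and Cyp3a13 counts as a raised gene on such probes alone. The largest rise of all member probes was that of Cyp2b10, an enzyme best known as the phenobarbital-induced P450 of mouse liver. Its 300-base promoter window is shown because the gene rose most. In this and the later windows capitals mark the letters of any of 4 motifs, which are GCGTG (core of the xenobiotic response element), TGACNNNGC (core of the antioxidant response element), AGAACA (a glucocorticoid receptor recognition hexamer) and AACAAT (bound by SRY and SOX proteins), read on both strands. The windows hold 250 bases before and 50 after the start of transcription and come from RefSeq (GRCm38.p6). The window of Cyp2b10 (chr7:25897408-25897707, plus strand) held GCGTG at 2 positions and none of the other motifs.
Cyp2b10: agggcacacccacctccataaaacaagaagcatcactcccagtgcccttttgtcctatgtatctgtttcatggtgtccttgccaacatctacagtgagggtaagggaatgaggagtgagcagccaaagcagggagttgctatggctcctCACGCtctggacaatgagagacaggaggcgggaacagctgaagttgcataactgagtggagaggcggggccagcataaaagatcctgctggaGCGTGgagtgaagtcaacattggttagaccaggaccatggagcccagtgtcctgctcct

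The Cyp2b10 probe ILMN_2594926 had log2 intensities of 8.05, 7.86 and 8.33 in hSRY-OFF 1, 2 and 3 and of 11.84, 11.53 and 9.95 in hSRY-ON 1, 2 and 3. All hSRY-ON lungs were above all hSRY-OFF lungs, and hSRY-ON 3 was the lowest of its group. The change was 3.03 (SE 0.46, limma adjusted p = 0.00536), or 8.15-fold. A second probe, ILMN_1215955, was not detected in any hSRY-OFF lung (mean 4.98 ± 0.03, SD, n = 3) and reached 6.29 ± 0.20 in hSRY-ON lungs, which is at least 2.0-fold higher. The fit, which uses the undetected values, gave a change of 1.31 (limma adjusted p = 0.00162), and the bound itself was not tested.

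Cyp2b23, of the same subfamily, read 5.63, 5.36 and 5.65 in the hSRY-OFF lungs and 8.61, 7.97 and 6.73 in the hSRY-ON lungs. The order of the 3 hSRY-ON lungs was the same as for Cyp2b10. The change was 2.22 (SE 0.43, limma adjusted p = 0.0115). Cyp2a5, which hydroxylates coumarin and nicotine, read 4.89, 5.36 and 5.02 against 7.36, 7.18 and 6.36 with probe ILMN_3159131, a change of 1.87 (SE 0.27, adjusted p = 0.00465), although only 1 hSRY-OFF lung was above background. A second Cyp2a5 probe was detected in no hSRY-OFF lung and was at least 1.33-fold higher in hSRY-ON lungs (means 4.69 and 5.70). Its fitted change was 1.01 (limma adjusted p = 0.00613). Of the 2 probes that were not tested 1 was detected on 1 array and 1 on none. These changes near background depended on the background correction. Without it Cyp2b23 was at 0.94, the first Cyp2a5 probe at 0.61 and the second Cyp2b10 probe at 0.36, all still called higher.

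Cyp2s1, a P450 known from airway and other epithelia, was well above background in all lungs. It read 10.23, 10.15 and 10.25 in hSRY-OFF and 11.88, 12.08 and 11.84 in hSRY-ON lungs. The groups lay far apart relative to their spread, with a change of 1.72 (SE 0.12, limma adjusted p = 0.000598), or 3.30-fold. The change stayed between 1.60 and 1.78 under every alternative tried. Cyp2d22, a mouse relative of the human drug oxidase CYP2D6, read 10.24, 10.24 and 10.21 against 11.05, 10.94 and 10.57, a change of 0.62 (SE 0.15, adjusted p = 0.0236). That call was lost without any 1 of the hSRY-OFF lungs or hSRY-ON 2, with adjusted p from 0.0685 to 0.0826. The 2 tested probes of Cyp3a13, of the subfamily that clears many drugs, were detected in no hSRY-OFF lung and were at least 1.79-fold and 1.30-fold higher in hSRY-ON lungs. Their fitted changes were 0.97 and 0.84 (limma adjusted p = 0.00681 and 0.00607). Without background correction these changes were 0.26 and 0.22, and both calls were lost with median scaling added to that setting (adjusted p = 0.0549 and 0.0644).

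The other tested P450s of these families were not called. Cyp2e1, which oxidises ethanol, read 5.09, 5.10 and 5.95 in the hSRY-OFF lungs and 6.38, 5.38 and 6.10 in the hSRY-ON lungs. The groups overlapped (change 0.57, SE 0.33, limma adjusted p = 0.230). Cyp2d40 and Cyp2j9 had changes of 0.24 and 0.04. Cyp1b1, which like Cyp1a1 is a known target of the aryl hydrocarbon receptor, was detected in 2 hSRY-ON lungs and in no hSRY-OFF lung (4.83, 4.68 and 5.19 against 6.39, 5.50 and 5.05) and did not enter the test. Cyp1a1 was detected in no lung of either group.

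**Figure D2:**
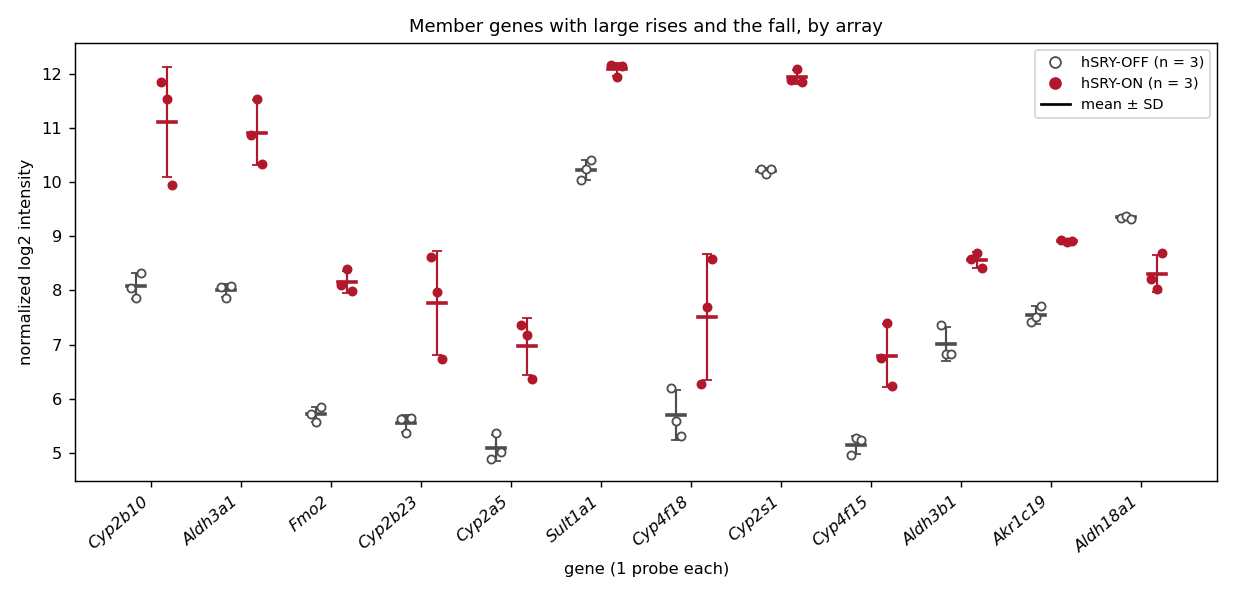
Normalized log2 intensity on each of the 6 arrays for 11 member genes with large rises and for Aldh18a1, 1 probe each, with the mean and SD of each group (n = 3). Cyp2s1, Sult1a1 and Akr1c19 have tight groups, whereas Cyp2b10 and Cyp2b23 spread widely in hSRY-ON lungs with hSRY-ON 3 lowest.

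Por hands electrons from NADPH to P450s of the endoplasmic reticulum, and all 3 of its probes were higher in hSRY-ON lungs. Probe ILMN_2629266 read 5.68, 5.54 and 5.56 in hSRY-OFF and 6.47, 7.01 and 6.32 in hSRY-ON lungs (change 1.01, SE 0.19, limma adjusted p = 0.0105). Probe ILMN_2791272 read 10.13, 10.20 and 10.18 against 10.86, 11.59 and 10.78 (change 0.91, SE 0.22, adjusted p = 0.0233), and ILMN_1232447 read 8.77, 8.77 and 8.69 against 9.54, 10.09 and 9.14 (change 0.85, SE 0.23, adjusted p = 0.0357). The groups did not overlap with any of the probes, and hSRY-ON 2 was the highest lung with each. Without any 1 of the hSRY-OFF lungs the last 2 calls were lost, with adjusted p from 0.0668 to 0.101, and that of ILMN_1232447 also without hSRY-ON 1 (0.0521) or hSRY-ON 2 (0.0528) or with no detection filter (0.0536), while that of ILMN_2629266 held in all 6 fits. Without background correction the change of ILMN_2629266 was 0.32. The Por window (chr5:135688895-135689194, plus strand) is given as that of the shared electron donor, and it held GCGTG at 3 positions.
Por: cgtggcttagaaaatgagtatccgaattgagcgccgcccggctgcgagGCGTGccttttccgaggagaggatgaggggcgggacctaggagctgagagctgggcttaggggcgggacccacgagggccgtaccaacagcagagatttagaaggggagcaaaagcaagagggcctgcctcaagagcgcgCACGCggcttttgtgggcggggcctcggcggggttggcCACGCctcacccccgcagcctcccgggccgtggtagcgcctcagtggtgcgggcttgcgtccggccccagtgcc

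The fatty acid and eicosanoid P450s of family 4 had 3 of 9 tested probes higher and none lower. Cyp4v3, related to the human fatty acid hydroxylase CYP4V2, read 8.71, 8.87 and 8.86 in hSRY-OFF and 9.84, 10.26 and 9.78 in hSRY-ON lungs. The groups were apart by 1.14 (SE 0.16, limma adjusted p = 0.00383). Cyp4f15 read 4.96, 5.27 and 5.23 against 6.75, 7.39 and 6.24, with 1 hSRY-OFF lung above background, and its change was 1.64 (SE 0.28, adjusted p = 0.00771) or, without background correction, 0.52. Cyp4f18, a leukotriene B4 hydroxylase of neutrophils, read 6.20, 5.59 and 5.31 against 6.28, 7.69 and 8.58. Here hSRY-ON 3 was the highest lung, as for only 1 other of the 31 raised probes (of Sult5a1), and hSRY-ON 1 lay barely above hSRY-OFF 1. Its change of 1.82 (SE 0.55, adjusted p = 0.0479) was not called without any 1 lung other than hSRY-ON 1 (adjusted p from 0.0821 to 0.136), rose to 2.46 without hSRY-ON 1, and was 0.78 without background correction (adjusted p = 0.0571). The second Cyp4f18 probe was not called either (0.74, adjusted p = 0.227). The 6 probes not called had changes from -0.41 for 1 of 3 Cyp4f16 probes to 0.74.

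None of the 6 tested probes of the steroid, sterol and bile acid P450s was called by limma, nor by a two-sample test without shared variance, with changes from 0.10 to 0.41. At an unadjusted p under 0.05 the count was 2, both of them probes of Cyp39a1. They belong to Cyp27a1, Cyp39a1 and Cyp7b1, which hydroxylate cholesterol or oxysterols. Cyp27a1 (ILMN_2960108) read 8.55, 8.98 and 8.94 in hSRY-OFF and 8.89, 8.80 and 9.54 in hSRY-ON lungs, and the groups overlapped (change 0.25, SE 0.23, limma adjusted p = 0.434). The retinoic acid and vitamin D P450s gave no call from 2 probes by either test, and none at an unadjusted p under 0.05. Cyp26b1, which breaks down retinoic acid, read 5.14, 5.53 and 5.64 against 5.61, 5.58 and 5.54 (change 0.14, SE 0.15, adjusted p = 0.532). Cyp20a1, a P450 of no settled substrate, had a change of 0.28 (adjusted p = 0.405).

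The flavin monooxygenases oxidise nitrogen and sulfur atoms of foreign compounds. Fmo2, known as the main lung form in many mammals, read 5.73, 5.57 and 5.84 in hSRY-OFF and 8.10, 8.39 and 7.99 in hSRY-ON lungs. All 3 hSRY-ON lungs were raised to a like degree, by 2.45 (SE 0.15, limma adjusted p = 0.000474), or 5.46-fold. The call held under every alternative, but the size was 1.09 without background correction. Fmo4 had a change of 1.21 (SE 0.27, adjusted p = 0.0183), not called without hSRY-ON 2 (adjusted p = 0.058) and 0.38 without background correction. Fmo1 read 13.05, 13.06 and 13.03 in hSRY-OFF and 13.23, 13.40 and 12.84 in hSRY-ON lungs, so the groups overlapped (change 0.11, SE 0.16, adjusted p = 0.647). Fmo5 had a change of 0.22.

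Aldehyde dehydrogenases oxidise aldehydes to acids, and 5 of 13 tested probes were higher and 1 lower. Aldh3a1, known for its abundance in cornea and its action on aldehydes of lipid peroxidation, read 8.06, 7.86 and 8.08 in hSRY-OFF and 10.86, 11.54 and 10.34 in hSRY-ON lungs. Its rise was the second largest among the member genes, at 2.91 (SE 0.28, limma adjusted p = 0.00139) or 7.53-fold, and it was called under every alternative. Aldh3b1, which oxidises lipid-derived aldehydes, was higher with all 3 probes. With ILMN_2953515 it read 7.37, 6.83 and 6.82 against 8.58, 8.69 and 8.41, a change of 1.55 (SE 0.18, adjusted p = 0.00234), and the other probes had changes of 1.38 and 1.28 (adjusted p = 0.00121 and 0.00241). Without background correction the first of these was 0.90.

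Other aldehyde dehydrogenases differed less or the other way. Aldh1l1, a folate enzyme, had a change of 0.92 (SE 0.23, limma adjusted p = 0.0276) that was not called without any 1 hSRY-OFF lung (adjusted p from 0.0582 to 0.102) or without background correction, where it was 0.31 (adjusted p = 0.0508). Aldh18a1, which makes a precursor of proline rather than acting on foreign aldehydes, was the 1 member that fell. It read 9.34, 9.38 and 9.32 in hSRY-OFF and 8.21, 8.02 and 8.70 in hSRY-ON lungs, a fall by 1.04 on the log2 scale (SE 0.18, adjusted p = 0.00853). Aldh2, the mitochondrial enzyme that oxidises acetaldehyde, read 13.99, 13.99 and 14.08 against 14.00, 14.15 and 14.15, with overlapping groups (change 0.08, SE 0.11, adjusted p = 0.618). Aldh3a2, the chromosomal neighbour of Aldh3a1, had a change of 0.21 (adjusted p = 0.180).

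Of 6 tested probes for aldo-keto reductases 2 were higher. Akr1c19 read 7.41, 7.51 and 7.72 in hSRY-OFF and 8.93, 8.90 and 8.91 in hSRY-ON lungs. Its 3 hSRY-ON values were nearly equal (SD 0.015), and the change was 1.37 (SE 0.12, limma adjusted p = 0.00112). Akr1b8, which reduces retinal and other aldehydes, had a change of 1.01 (SE 0.14, adjusted p = 0.00433). Akr1c12 and Akr1b3, which lie next to these genes on chromosomes 13 and 6, had changes of -0.04 and 0.16 and were not called. Akr1a4, the general aldehyde reductase (now named Akr1a1), was not called with either probe. With ILMN_3147135 it read 14.19, 14.13 and 14.19 against 13.92, 14.04 and 14.07, a change of -0.16 (SE 0.11, adjusted p = 0.309) whose sign turned with median scaling (0.064).

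The carboxylesterases, which split esters and amides, had 1 tested probe. Its symbol Ces3 fits both Ces1d and Ces3a of the current annotation. It read 13.32, 13.42 and 13.54 in hSRY-OFF and 13.93, 13.69 and 13.53 in hSRY-ON lungs and was not called (change 0.29, SE 0.14, limma adjusted p = 0.172). It was called higher in 1 alternative, median scaling without background correction (0.43, adjusted p = 0.0370), and without hSRY-ON 1 the change was 0.18.

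Both tested glucuronosyltransferase probes were higher. Ugt1a10 read 9.37, 9.40 and 9.25 in hSRY-OFF and 10.45, 10.68 and 10.63 in hSRY-ON lungs (change 1.25, SE 0.12, limma adjusted p = 0.00137). Ugt1a6a, a form that conjugates phenols, read 8.28, 8.40 and 8.15 against 9.15, 8.95 and 9.09 (change 0.79, SE 0.12, adjusted p = 0.00603). The groups were well apart for both, and both calls held under every alternative. Transcripts of the Ugt1a genes share their last exons, so a probe may read several of them. The Ugt1a10 window (chr1:88055161-88055460, plus strand) is shown because it held AACAAT at 3 positions, the most of the 4 windows, 1 of them sharing letters with its AGAACA.
Ugt1a10: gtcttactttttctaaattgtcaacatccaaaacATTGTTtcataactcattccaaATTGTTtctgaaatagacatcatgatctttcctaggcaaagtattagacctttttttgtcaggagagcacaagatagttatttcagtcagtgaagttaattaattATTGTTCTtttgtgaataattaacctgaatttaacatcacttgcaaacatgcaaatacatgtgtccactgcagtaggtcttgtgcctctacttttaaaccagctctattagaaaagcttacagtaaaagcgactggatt

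Sulfotransferases had 3 of 5 tested probes higher. Sult1a1, the main sulfotransferase for phenols, read 10.03, 10.24 and 10.40 in hSRY-OFF and 12.17, 11.94 and 12.14 in hSRY-ON lungs. The change of 1.86 (SE 0.14, limma adjusted p = 0.000695), or 3.62-fold, lay between 1.73 and 1.95 in every alternative. The 2 tested probes of Sult5a1 had changes of 0.93 and 0.90 (adjusted p = 0.0278 and 0.0305). The first was not called without any 1 hSRY-OFF lung (adjusted p from 0.0701 to 0.1003), and the second without hSRY-OFF 1 or 2 or hSRY-ON 1 or 3 (adjusted p from 0.0547 to 0.108), and neither was called with median scaling in place of background correction and quantiles. Sult2b1, which sulfates cholesterol, was not called with either probe (-0.31 and 0.11). Sult1d1 was detected only in hSRY-ON 1 and hSRY-ON 2 and was not tested. The Sult1a1 window (chr7:126676369-126676668, minus strand, written 5′ to 3′ of the gene) is shown as that of the conjugating enzyme with the largest rise. It held AGAACA at 2 positions and AACAAT at 1, which overlaps the first AGAACA.
Sult1a1: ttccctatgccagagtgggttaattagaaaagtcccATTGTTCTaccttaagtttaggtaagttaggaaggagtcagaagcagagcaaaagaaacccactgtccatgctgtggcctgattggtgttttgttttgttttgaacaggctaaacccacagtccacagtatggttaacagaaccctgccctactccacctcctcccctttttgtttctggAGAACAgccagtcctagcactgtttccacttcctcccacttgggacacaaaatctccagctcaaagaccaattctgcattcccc

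Over the 20 windows found for 19 genes called higher, GCGTG was present in 4 (20%), TGACNNNGC in 2 (10%), AGAACA in 5 (25%) and AACAAT in 4 (20%). The shares among all 32851 RefSeq windows of this length were 32.4%, 12.4%, 19% and 10.7%, in the same order. In the 20 windows of tested genes with no call the 4 motifs were in 9, 1, 3 and 0. These are matches of letters, given as a description.

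The genes called higher lay on several chromosomes. In the 2 runs of Cyp2 genes on chromosome 7 all 4 tested genes, Cyp2s1, Cyp2b10, Cyp2b23 and Cyp2a5, were called higher, and the other 5 member genes there (Cyp2b9, Cyp2b13, Cyp2b19, Cyp2g1 and Cyp2a12) were detected in no lung. The Cyp2b genes are close copies, and whether their probes tell them apart was not examined. Among the Cyp4f genes of chromosome 17 Cyp4f15 was called and Cyp4f13, Cyp4f16 and Cyp4f39 were not. Of the 7 Cyp2d genes on chromosome 15 only Cyp2d22 and Cyp2d40 entered the test. Cyp3a16, Cyp3a44, Cyp3a11 and Cyp3a25, neighbours on chromosome 5, and the 11 Cyp2c genes of chromosome 19 were detected in no lung.

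The hSRY-ON lungs differed among themselves. The SD over replicates was larger in hSRY-ON than in hSRY-OFF lungs for 54 of the 66 tested member probes (81.8%), as for 73.7% of all tested probes, and the median SD was 0.26 against 0.14 (log2). hSRY-ON 3 was the lowest hSRY-ON lung for 23 of the 31 probes called higher (74.2%) and for 43% of the 1883 probes called higher on the array. Without hSRY-ON 3, 29 member probes were called higher and 1 lower.

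**Figure D3:**
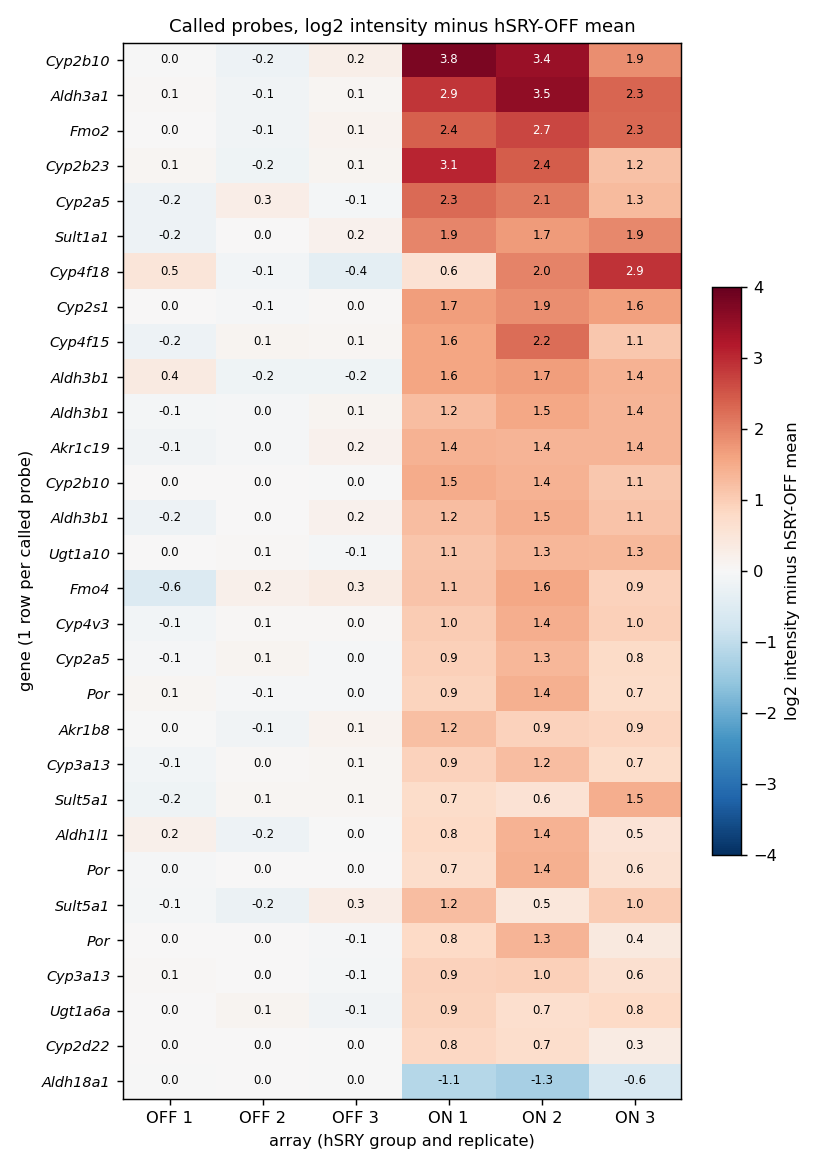
Log2 intensity minus the hSRY-OFF mean for 30 called member probes on each of the 6 arrays, ordered by fitted change. The hSRY-ON 3 column holds the lowest hSRY-ON value for 21 of the 29 raised probes shown, with wide gaps for Cyp2b10 and Cyp2b23, while Cyp4f18 has its highest value there.

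The partners of these enzymes were followed with a list of 57 genes for regulators, electron carriers, haem supply, other enzymes and transporters, of which 55 are on the array. Of 50 tested probes 11 were higher (22%) and 4 lower (8%), with a median change of 0.13. Over all tested probes of the array 26.9% were called, 13.6% higher and 13.3% lower, with a median of -0.03. No probe among the 11 tested for regulators was called by limma or by the two-sample test, and 1, of Nr1h4, the bile acid receptor, had an unadjusted p under 0.05. Ahr, the aryl hydrocarbon receptor, Nr3c1, the glucocorticoid receptor, Nr1i2 and Nr1i3, the drug-sensing nuclear receptors, and Ppara were detected in no lung. Each has 1 probe on the array, and a probe without signal does not show that the RNA was absent. Nfe2l2, which drives antioxidant genes, read 8.32, 8.21 and 8.35 in hSRY-OFF and 8.64, 7.85 and 7.32 in hSRY-ON lungs (change -0.36, SE 0.31, limma adjusted p = 0.416). Without hSRY-ON 1 it was called lower (-0.71, adjusted p = 0.0294), and without hSRY-ON 3 the change was -0.045. Cyb5, an electron carrier beside Por, read 8.59, 8.54 and 8.66 against 9.68, 8.45 and 8.16, so that 1 lung was above and the others below (change 0.17, SE 0.36, adjusted p = 0.763).

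Hmox1, which degrades haem, read 7.32, 7.46 and 7.64 in hSRY-OFF and 11.20, 9.65 and 9.27 in hSRY-ON lungs. This was the largest rise of the partner list (2.57, SE 0.46, limma adjusted p = 0.00889), and it was 1.88 without background correction. Xdh, which oxidises purines, rose by 2.35 (SE 0.14, adjusted p = 0.000474), and Ptgis, the prostacyclin synthase and itself a P450, by 1.76 (SE 0.17, adjusted p = 0.00139). The exporters Abcb1b, a P-glycoprotein, and Abcc3, which carries glucuronides, rose by 1.50 and 1.19 (adjusted p = 0.00417 and 0.00161), Abcb1b by 0.56 without background correction. The others called higher, between 0.72 and 0.91, were Alas1, the first enzyme of haem synthesis, the epoxide hydrolases Ephx1 and Ephx2, the quinone reductase Nqo1, the carbonyl reductase Cbr2 and the thromboxane synthase Tbxas1. Their limma adjusted p ran from 0.00363 for Cbr2 to 0.0345 for Alas1, and these calls were not followed probe by probe in the alternatives. A second tested probe of Tbxas1 was not called (0.04, limma adjusted p = 0.923). Adh1, the alcohol dehydrogenase, read 13.56, 13.66 and 13.57 in hSRY-OFF and 11.80, 11.38 and 12.35 in hSRY-ON lungs with ILMN_1258501. It fell by 1.76 on the log2 scale (SE 0.24, adjusted p = 0.00358), and with the second probe by 1.39. Papss1, which makes the sulfate donor of the sulfotransferases, fell by 0.70 and 0.63 with its 2 probes (adjusted p = 0.0145 and 0.0124), opposite in direction to Sult1a1. The first Papss1 call was lost without hSRY-OFF 1 or 2 (adjusted p = 0.0629 and 0.0609). The list had 9 probes called lower without hSRY-ON 1 and 2 without hSRY-OFF 1 or 2.

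**Figure D4:**
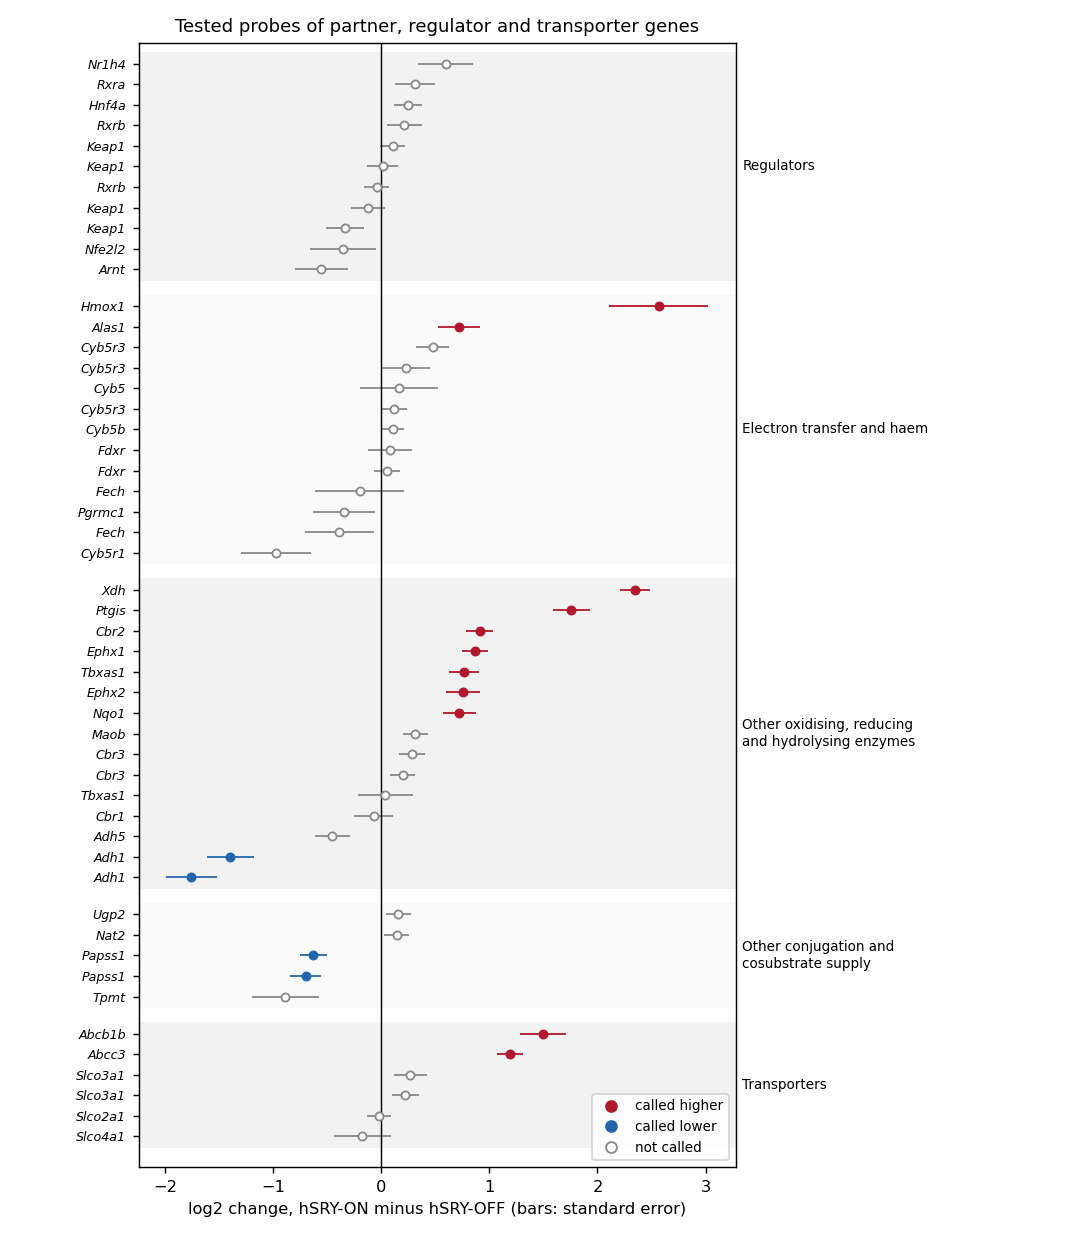
Fitted log2 change (hSRY-ON minus hSRY-OFF, 3 arrays each) with standard error for the 50 tested probes of partner, regulator and transporter genes. No regulator probe is filled, that is called, whereas Hmox1, Xdh and Ptgis lie farthest right and Adh1 farthest left.

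Markers of several lung cell types also differed between the groups, some higher and some lower in hSRY-ON lungs, and their part in the results was not tested. The counts below stand beside 13.6% of all tested probes of the array called higher and 13.3% called lower. With 1 probe a gene, 3 of 6 club cell markers were higher (Scgb3a1, Cyp2f2 and Cldn10) and none lower. Over all probes these were 7 of 10, for 4 genes, since a second, dimmer probe of Scgb3a2 was also higher (1.52, limma adjusted p = 0.00165). Among the 7, Scgb3a1 ILMN_2638082 was detected in no hSRY-OFF lung. The summed linear intensity of the list lay between 53668 and 55509 in hSRY-OFF lungs and between 68353 and 84657 in hSRY-ON lungs. Scgb1a1, the defining secretory product, was detected in every lung and had a change of 0.01 (limma adjusted p = 0.974). Its values of 14.80 to 15.03 lay near the 15.48 of the erythroid marker Hba-a1, which limits how far a rise could show. Cyp2f2, a P450 of club cells, had a change of 1.18 (limma adjusted p = 0.00295). Of 5 ciliated cell markers 3 were higher (sum 7801 to 8186 against 9744 to 11545), and of 7 type II markers 3 (64381 to 65655 against 74859 to 81979), with Sftpc detected in every lung, at -0.25 and not called. Macrophage markers were higher for 5 of 6 genes, with sums of 24155 to 26238 against 34274 to 41979. Linear sums weigh the brightest probe most, which was Lyz2 among the macrophage markers (change 0.40). For club cells this was Scgb1a1 and for smooth muscle Acta2. None of 4 type I markers and none of 5 erythroid markers was called by limma or the two-sample test (0 and 1 at an unadjusted p under 0.05). Among the erythroid markers Hba-a1 read 15.48 on all 6 arrays after quantile normalization, so it could not have been called. Of 6 fibroblast markers 1 was higher and 1 lower. Of the endothelial markers 3 of 4 were lower (28456 to 30853 against 18712 to 21360), as were 2 of 3 smooth muscle markers (27931 to 30011 against 14401 to 21216). Hopx, Kdr and Cnn1, of the type I, endothelial and smooth muscle lists, were detected in no lung and not tested. Liver tissue was examined because several of these enzymes are liver genes. Of 10 hepatocyte markers on the array, Alb, Ttr, Fgb, Tat and Cps1 were detected in no lung, and the 3 that were tested, Apoa1, Ahsg and Hpx, were higher (sum 113 to 155 against 298 to 572). Apoa1 and Ahsg were detected in no hSRY-OFF lung, so they entered the test only because they differ. Their part of the hSRY-OFF sums is background. No adipocyte marker passed the detection filter.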

How the data were processed

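Lung RNA of 3 hSRY-OFF and 3 hSRY-ON mice was read on Illumina MouseRef-8 v2.0 BeadChips, and groups follow the sample labels. The authors deposited, for each probe and array, an intensity that was neither background-corrected nor normalized, with its detection p-value. Summary settings are not given in the sources used here. The study's methods name TCC, a count method, and the submitters' processing notes limma. Here limma 3.58.1 in R 4.3.3 was used. Background was estimated from detection p-values, an offset of 16 added, arrays quantile-normalized and log2 taken, which compresses changes of dim probes. Probes with detection p under 0.05 on at least 3 of 6 arrays were kept, 13841 of 25697 (53.9%). The fit was by lmFit and eBayes with group alone as a factor, with Benjamini-Hochberg adjustment across every kept probe and a threshold of 0.05. Arrays detected 13191 to 14134 probes, and their number limits the precision. No arrays were identical, and correlations were at least 0.972 within groups and at most 0.959 between them.

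A probe undetected in 1 group is given as a bound, the bright group's mean against a floor for the dim group (on each array the lowest detected value, or the probe's value if higher, averaged). Probes of different genes are not compared in level. Described in full were the 12 genes with the largest rise, Aldh18a1 as the only fall, Por, Cyp1a1, Cyp1b1, Cyp2e1, Cyp26b1, Aldh2, Aldh3a1 and the brightest probe of each role. Of the partner list these were the 5 largest rises and falls, Ahr, Nr3c1, Nfe2l2 and Cyb5. Values of 1 of these genes are left out, though the overall counts include it. Genes that were not called and are not listed here were named after their values were seen. Members, lists and roles were chosen with earlier results of these data known. RefSeq (GRCm38.p6) gave 1 current symbol for 134 of 135 genes and a promoter window for 106. Alternatives were other background corrections, normalizations, filters, variance models, a replicate block, a stricter threshold and leaving out each array. The pipeline was tested on simulated data.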

Additional observations from a re-analysis of the deposited data

How the results depend on the processing

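Of the 32 calls among member probes 16 held in every alternative that tested them, 20 held apart from the stricter threshold and the test without shared variance, and none reversed. The 31 probes higher became 18 in a two-sample test without shared variance and 19 at an adjusted p under 0.01, and 22 to 30 with 1 array left out. The first of these tests did not call, among others, Cyp2b10 (ILMN_2594926), Cyp2b23, Cyp4f15, Cyp4f18, Cyp2d22, Fmo4, Por, Aldh1l1, Sult5a1 or Hmox1. Probes called lower numbered 1 to 2 with 1 array left out, 2 being the count without hSRY-ON 1. Without background correction 29 were higher, and 26 with median scaling added. The share of calls over the whole array that were higher moved from 50.5% to 42.2% in that last setting. Deviations from the group means correlated at -0.11, 0.10 and -0.09 between arrays with the same replicate number, and at -0.09 to 0.16 between different numbers. With 3 arrays a group such values cannot settle whether the numbers pair the mice, and the labels do not say. With the replicate number as a block 29 member probes were higher and 1 lower (Cyp4f18 and Aldh1l1 lost their calls), beside 2657 calls on the whole array in place of 3729. The array counts were 1962 in the two-sample test, 1326 at the stricter threshold and, with 1 array left out, 1675 to 4443. Alternatives were followed probe by probe for called member probes and for probes described in full. Among these, signs turned for Akr1a4 (0.064 with median scaling, 0.0063 with the background correction left out as well), Cyp26b1 (-0.0087 without hSRY-OFF 1, at most 0.24 with 1 array left out), Fmo1 (-0.0087 without hSRY-ON 2, at most 0.27) and Cyb5 (-0.29 without hSRY-ON 1, at most 0.47), none of them called. Changes of Cyp2e1 (0.15 to 0.88), Cyp20a1 (0.030 to 0.52), Cyp27a1 (0.023 to 0.39) and Aldh2 (0.055 to 0.29) also moved widely across the alternatives without a call, the lowest value of Cyp20a1 being without hSRY-ON 1 and that of Cyp27a1 without hSRY-ON 3. Signal over background limits the dim probes of Cyp2a5, Cyp3a13 and Cyp4f15, whose sizes depend on the background correction. The cause of the other differences was not tested.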
